A study of Mus musculus with 9 samples.

Results

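Fibroblasts grown from mouse paws that had received 2 injections of urate crystals were compared with fibroblasts from paws that had received none. The comparison uses 3 primed and 3 naive libraries, which are 6 of the 9 libraries of the series. It covers the 15632 genes, of 47729 in the deposited table, that varied and had a mean regularised log (rlog) value of at least 3 over these 6 libraries. The rlog is a log2 scale on which libraries are adjusted for depth and genes with few reads are drawn towards their own mean, so a difference of 1 stands for a doubling and differences of weak genes are understated. At the edge of this filter, Gm10642 and Cdiptos lay just inside with single-library values of 2.57 to 3.31, and Hsd17b1, Cpa4 and Ldha-ps2 lay just outside with values of 2.72 to 3.38.

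All libraries came from wild-type mice of the BALB/c strain. Cells were released from the paw with collagenase, labelled as synovial fibroblasts and grown for 5 passages, and RNA was taken at day 18. Primed paws were left paws injected with monosodium urate (MSU) crystals on day 0 and on day 9. Naive paws were not injected, and their side is not given in the labels. The other 3 libraries, called non-primed, are from right paws given a single injection on day 9, and they entered the fit to estimate the spread. A primed and a non-primed culture may share a mouse, and a replicate number is not the name of an animal. Since the labels tie no culture to its mouse, p-values measure only the spread between these samples. The question of the comparison is what distinguishes cultured cells of a joint that went through repeated crystal inflammation from those of a joint that did not.

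Monosodium urate crystals are the crystals that deposit in the joints in gout, where they provoke bouts of inflammation. Synovial fibroblasts form the lining of the joint and the tissue beneath it, where they make matrix, lubricant, proteases and chemokines. Cells sense oxygen through prolyl hydroxylases, which mark the transcription factor subunit HIF1A for degradation while oxygen is present. When HIF1A is stable it pairs with ARNT and raises genes of glucose uptake, glycolysis, lactate export, pH control and mitophagy.

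The naive cultures varied more among themselves than the primed ones. The median SD between replicates over the tested genes was 0.225 in naive, 0.138 in primed and 0.103 in non-primed libraries. Over the 6 libraries, naive 3 lay apart from the other 5 on the first principal component (41.9% of the variance). The median rlog of the tested genes lay between 8.78 and 8.83 in all 9 libraries, and the read depth behind the values is unknown. Markers of fibroblasts were present in every library, with Vim, an intermediate filament gene of mesenchymal cells, at 15.36 to 15.90 in naive and 15.91 to 15.98 in primed libraries. Markers of macrophages were present too. The mean of the 17 tested macrophage genes was 7.61 in naive 1, 9.71 in naive 2 and 7.26 in naive 3, against 10.06, 10.73 and 9.47 in primed 1, 2 and 3. Naive 2 therefore lay inside the range of the primed libraries for these genes, while naive 1 and naive 3 lay below it.

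Of the 15632 genes, 16 (0.102%) differed between primed and naive libraries at a Benjamini-Hochberg adjusted p below 0.05 in limma. Of these, 15 (0.096%) were higher in primed libraries and 1 (0.0064%) was lower. The genes that rose were Npy, Aqp5, Pla1a, Eef1a2, Car9, Slc16a3, Lmcd1, Armh4, Fam162a, Tmem45a, Bnip3, Lipa, Ndrg1, Fuca2 and Atp6v1b2, and the gene that fell was Esm1. Every primed library lay beyond every naive library for all 16. Groups that did not overlap were also found for 2674 (17.1%) of the tested genes, with 1395 (8.92%) higher and 1279 (8.18%) lower in primed libraries. An unadjusted p below 0.05 was given to 2627 genes (16.8%), and 49.7% of all genes had a higher mean in primed libraries. The median difference over all tested genes was -0.002.

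**Figure D1:**
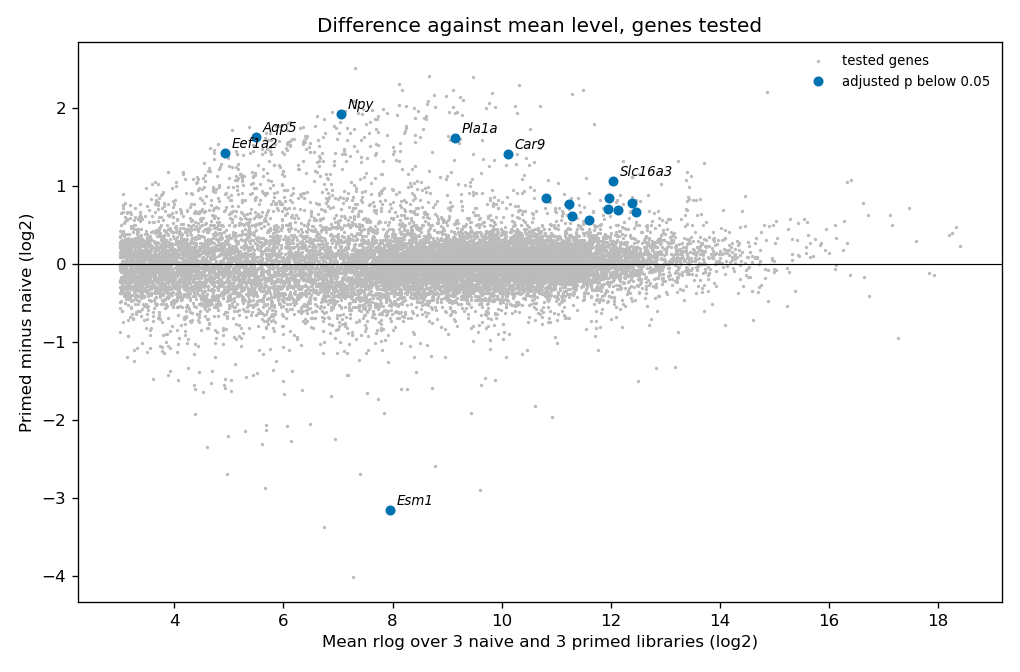
Difference between primed and naive means (vertical axis, log2) against the mean rlog of the 3 naive and 3 primed libraries (horizontal axis, log2) for the 15632 tested genes. Each grey point is a gene, blue points mark the 16 genes at an adjusted p below 0.05, and the largest of them are named. Esm1 at -3.16 is the only blue point below 0.

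The number of genes past the threshold rested on the make-up of the fit. It was 0 when the naive and primed libraries were fitted alone, with 1650 genes at an unadjusted p below 0.05 in limma. Leaving out any 1 of the non-primed libraries also gave 0, with 2062 (number 1), 2335 (number 2) and 2163 (number 3) genes at an unadjusted p below 0.05, and leaving out primed 2 gave 0 with 1297. It was 1 without primed 3, where Npy alone passed, but 58 when primed 1 was left out. Of the naive libraries, leaving out number 1 gave 56 genes, number 2 gave 357 and number 3 gave 197. The differences themselves moved little: leaving out 1 library at a time, the difference stayed between 1.26 and 1.58 for Car9, between 0.66 and 0.75 for Bnip3 and between -3.46 and -2.79 for Esm1.

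**Figure D2:**
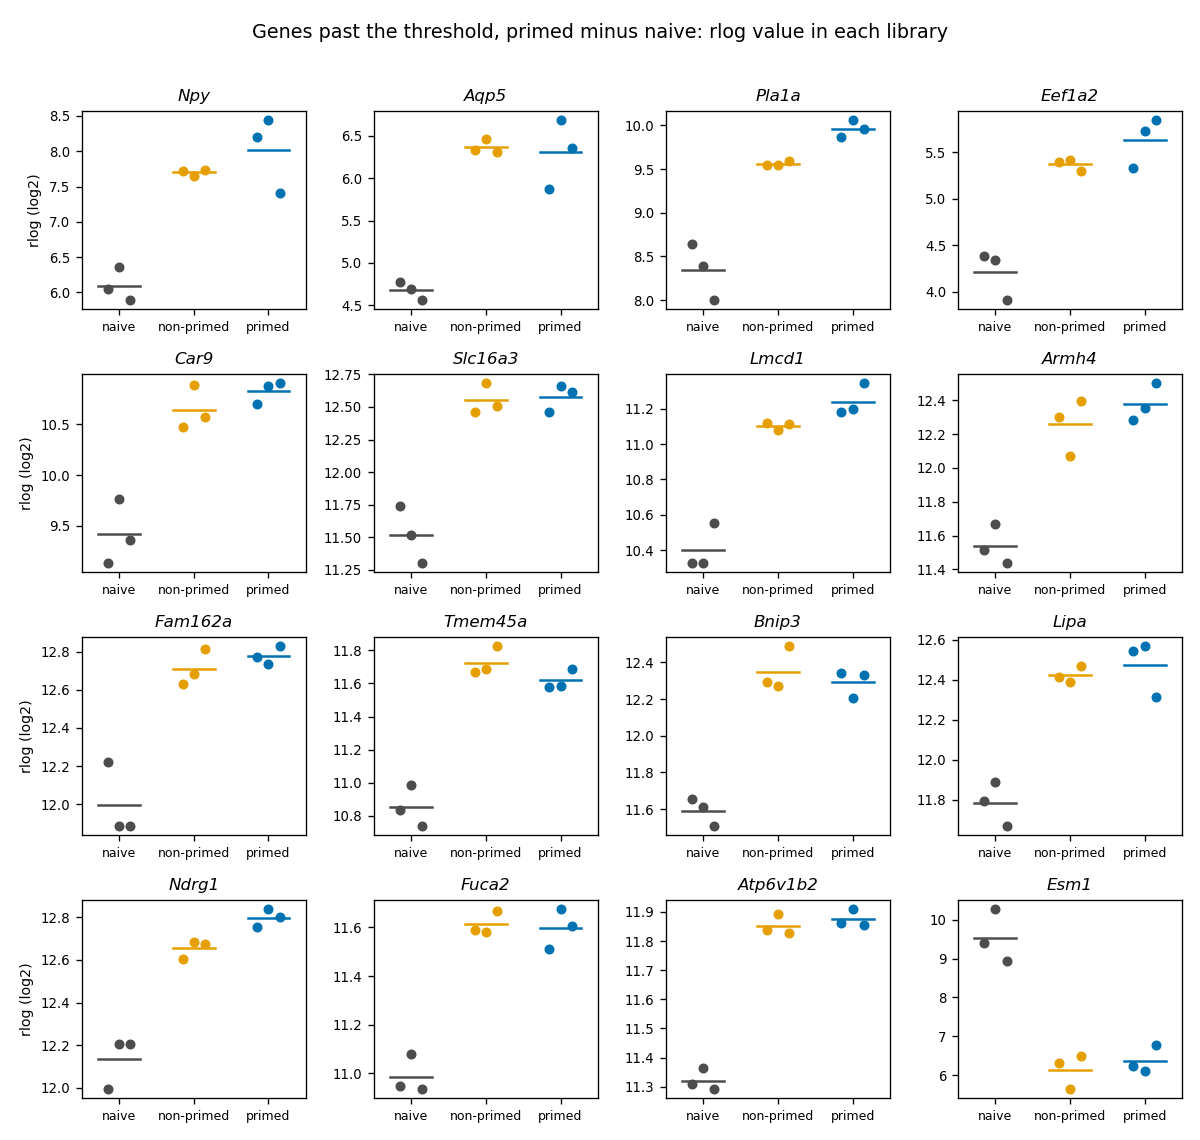
The rlog value (vertical axis, log2) of the 16 genes past the threshold in each library, with naive, non-primed and primed libraries along the horizontal axis in the order of their numbers. Points are libraries and bars are group means. In every panel the 3 primed libraries lie on one side of the 3 naive libraries, above them for 15 genes and below them for Esm1.

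Of the 15 genes that rose, 4 are on the list of HIF1A targets (Car9, Bnip3, Ndrg1 and Fam162a) and 1 on that of glycolysis and lactate export (Slc16a3). Car9 encodes a carbonic anhydrase at the cell surface that helps to export acid (ENSMUSG00000028463, GRCm38 chromosome 4, 43506966 to 43513729). It stood at 9.13, 9.76 and 9.36 in naive 1, 2 and 3 and at 10.70, 10.87 and 10.90 in primed 1, 2 and 3. All primed libraries lay above all naive libraries, and the rise was 1.41 (SE 0.17, adjusted p = 0.0346). Bnip3 encodes a receptor that directs mitochondria to autophagy (ENSMUSG00000078566, chromosome 7, 138890836 to 138909519). Its values were 11.65, 11.61 and 11.51 in naive and 12.34, 12.21 and 12.33 in primed libraries, a rise of 0.70 (SE 0.09, adjusted p = 0.0346) with a narrow spread in each group. Slc16a3 encodes the monocarboxylate carrier that exports lactate from glycolytic cells (ENSMUSG00000025161, chromosome 11, 120948480 to 120960868). It was measured at 11.74, 11.52 and 11.30 in naive and at 12.46, 12.66 and 12.62 in primed libraries, a rise of 1.06 (SE 0.12, adjusted p = 0.0346).

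The bases before the start sites of these genes are shown because HIF complexes bind the short letters ACGTG or GCGTG, the core of the hypoxia response element. The 250 bases before the RefSeq start were read on GRCm38.p6 at chr4:43506776-43507025 (plus strand) for Car9, chr11:120948817-120949066 (plus strand) for Slc16a3 and chr7:138909507-138909756 (minus strand) for Bnip3. Those of Esm1, at chr13:113209409-113209658 (plus strand), are given for comparison as the gene that fell. Capitals mark ACGTG or GCGTG on either strand, where the other strand reads CACGT or CACGC.
Car9: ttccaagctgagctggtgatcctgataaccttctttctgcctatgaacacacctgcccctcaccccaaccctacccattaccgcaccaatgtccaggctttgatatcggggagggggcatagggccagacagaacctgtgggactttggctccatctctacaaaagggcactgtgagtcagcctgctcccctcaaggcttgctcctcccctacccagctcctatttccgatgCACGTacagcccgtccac
Slc16a3: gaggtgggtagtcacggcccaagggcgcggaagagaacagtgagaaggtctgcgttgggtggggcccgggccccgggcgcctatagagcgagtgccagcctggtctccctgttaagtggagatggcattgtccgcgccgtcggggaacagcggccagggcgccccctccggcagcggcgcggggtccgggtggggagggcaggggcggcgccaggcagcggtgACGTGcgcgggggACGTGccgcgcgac
Bnip3: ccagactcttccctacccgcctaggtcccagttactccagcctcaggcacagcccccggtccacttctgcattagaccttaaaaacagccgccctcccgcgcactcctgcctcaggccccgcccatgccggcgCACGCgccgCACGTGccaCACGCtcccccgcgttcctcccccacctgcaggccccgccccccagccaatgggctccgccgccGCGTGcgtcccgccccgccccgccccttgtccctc
Esm1: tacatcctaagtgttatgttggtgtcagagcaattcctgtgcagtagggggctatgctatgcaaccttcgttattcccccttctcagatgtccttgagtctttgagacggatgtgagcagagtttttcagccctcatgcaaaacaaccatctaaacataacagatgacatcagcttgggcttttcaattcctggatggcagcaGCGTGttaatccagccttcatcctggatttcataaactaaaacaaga
The Car9 stretch holds 1 ACGTG match, which begins 18 bases before the start site. The Slc16a3 stretch holds 2, beginning 27 and 14 bases before it. Bnip3 holds 5 matches, of which 2 are the same CACGTG, a palindrome that reads as ACGTG on each strand and is also the letters of an E-box. Esm1 holds 1 GCGTG and no ACGTG. Windows of 250 bases before to 50 bases after the start were found in the RefSeq table for 12 of the 15 genes that rose. ACGTG was present in 6 of these 12 windows (50%), beside 24.7% of the 14099 windows of tested genes and 19.6% of all 32851 windows. GCGTG was present in 7 of the 12 (58.3%), beside 48.7% and 32.4%. Of the windows of HIF1A target genes, 11 of 21 (52.4%) held ACGTG, as did 17 of 33 (51.5%) for glycolysis, 13 of 21 (61.9%) for lysosomal genes and 0 of 13 for macrophage markers. These are counts of letters, and the windows of 1 gene can overlap. The RefSeq starts also differ from the GENCODE gene coordinates given above. By those coordinates the Slc16a3 stretch lies wholly inside its gene, and the Car9 and Bnip3 stretches lie partly inside theirs.

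The list of HIF1A target genes outside glycolysis had 19 tested members, and all 19 had a higher mean in primed libraries. Of these, 4 rose past the threshold, beside 0.096% of all genes. The groups separated upwards without overlap for 10 (52.6%), beside 8.92% of all genes, and downwards for none, beside 8.18%. The median difference was 0.54, and it stayed between 0.43 and 0.63 over all settings tried. Ndrg1, a stress-responsive gene of growth-arrested cells, was at 11.99, 12.20 and 12.21 in naive and at 12.76, 12.84 and 12.80 in primed libraries, a rise of 0.66 (SE 0.08, adjusted p = 0.0346). Fam162a, a mitochondrial protein gene known to be induced by hypoxia, was at 12.22, 11.88 and 11.88 against 12.77, 12.74 and 12.83, a rise of 0.78 (SE 0.11, adjusted p = 0.0470). Naive 1 was the highest naive library for Fam162a, and its primed libraries lay within 0.1 of each other. Pdk1, a kinase that limits the entry of pyruvate into the mitochondrion, was 0.66 higher and just missed the threshold (adjusted p = 0.0523). Vegfa, the main growth factor for blood vessels, was at 11.04, 10.88 and 11.08 in naive and 11.29, 11.61 and 11.65 in primed libraries, a difference of 0.52 (adjusted p = 0.1). At the low end of the list, the histone demethylase gene Kdm3a differed by 0.04. Overlapping genes limit some of these values: Car9, Ndrg1, Fam162a, Lmcd1, Atp6v1b2 and Esm1 each share their place with a gene on the other strand, and whether the counting used strand is not given in the sources used here.

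Among the 9 tested genes of the oxygen sensor itself, none passed the threshold. Of the 9, 4 (44.4%) were higher in every primed library than in every naive library, beside 8.92% of all genes. Egln1, the main prolyl hydroxylase, stood at 11.58, 11.54 and 11.59 in naive and at 12.06, 12.01 and 12.18 in primed libraries, a difference of 0.51 (SE 0.07, adjusted p = 0.0522). Egln3, a related hydroxylase that HIF itself induces, was 1.02 higher (adjusted p = 0.0806). Hif1a was at 13.93, 14.31 and 13.97 in naive and 14.65, 14.70 and 14.88 in primed libraries, a difference of 0.67 (SE 0.13, adjusted p = 0.1). Epas1, which encodes the related HIF2A subunit, was 0.49 lower in the mean with overlapping groups. The RNA of Hif1a says nothing direct about the amount of its protein, which is set largely by degradation.

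Of the 22 tested genes of glycolysis and lactate export, 21 had a higher mean in primed libraries, and 17 separated the groups without overlap, beside 8.92% of all genes. Only Slc16a3 passed the threshold, and the median difference was 0.51, within 0.42 to 0.60 over all settings. Eno2, an enolase, was at 11.20, 11.05 and 11.20 in naive and 11.67, 11.61 and 11.63 in primed libraries, a difference of 0.49 (adjusted p = 0.0667). Aldoc, an aldolase, differed by 1.30 (adjusted p = 0.0765) and Pgk1, phosphoglycerate kinase, by 0.82 (adjusted p = 0.0825). Slc2a1, the basal glucose transporter, was at 10.74, 10.62 and 10.08 in naive and 11.26, 11.26 and 11.30 in primed libraries, a difference of 0.79 (adjusted p = 0.1). Ldha, which converts pyruvate to lactate, differed by 0.47 (adjusted p = 0.141) with groups that did not overlap. The exception in the list was the glucose transporter gene Slc2a3, at 7.54, 8.05 and 8.99 in naive and 7.73, 8.04 and 7.99 in primed libraries.

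**Figure D3:**
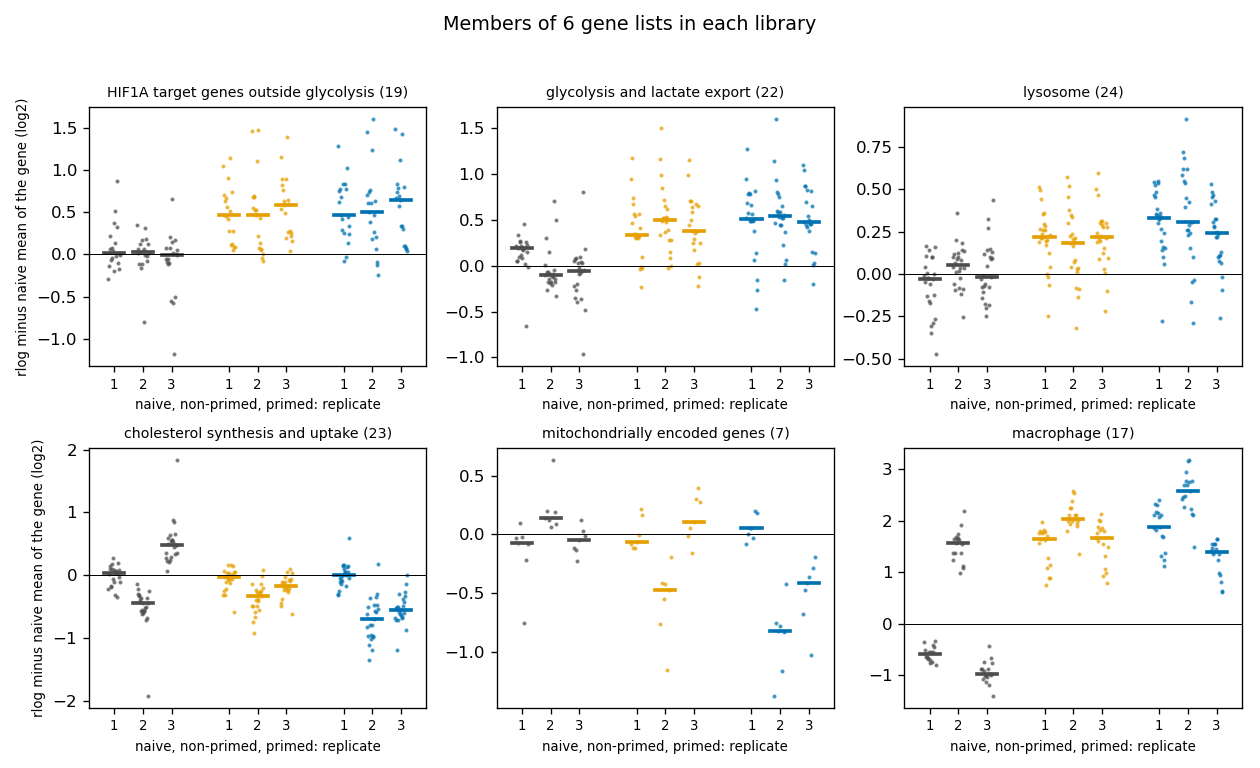
Members of 6 gene lists in each library, as the rlog value minus the gene's mean over naive libraries (vertical axis, log2), for naive, non-primed and primed libraries 1 to 3 (horizontal axis). Points are genes and bars are medians over the list. HIF1A targets, glycolysis and lysosomal genes lie higher in each of the 3 primed libraries than in the naive ones, cholesterol genes overlap between the groups, and macrophage genes set naive 1 and naive 3 below the other 7 libraries.

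Genes of the mitochondrion did not follow one direction. The 17 nuclear genes of the respiratory chain were higher in the mean in 16 cases, by a median of 0.10, and none passed. The largest difference there was in Ndufa4l2, a subunit paralog that is induced by low oxygen, at 9.83, 10.45 and 10.09 in naive and 10.93, 11.19 and 11.10 in primed libraries (difference 0.95, adjusted p = 0.0759). Cox4i2, the alternative subunit of cytochrome oxidase used under low oxygen, differed by 0.55 (adjusted p = 0.142). The 7 tested mitochondrially encoded genes were all lower in the mean, by a median of -0.39, but every one of them overlapped between the groups. mt-Nd2 shows the pattern, with 10.12, 10.30 and 10.04 in naive and 10.07, 8.79 and 9.48 in primed libraries, so that primed 1 lay among the naive libraries and primed 2 was lowest. Fatty acid oxidation genes were higher in the mean in 13 of 15 cases. The groups separated upwards for 6 (40%), beside 8.92% of all genes, led by Acaa2, a thiolase, at 0.41 (adjusted p = 0.141). Of the 15 genes of pyruvate entry and the TCA cycle, 8 were higher and 4 (26.7%, beside the same 8.92%) separated the groups upwards. They were led by Sdhb, a subunit of succinate dehydrogenase, at 0.31 (adjusted p = 0.167).

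Among the genes that rose, Atp6v1b2, Lipa and Fuca2 encode a lysosomal proton pump subunit and enzymes that act on lipids and sugars. Atp6v1b2 encodes a subunit of the proton pump that acidifies the lysosome (ENSMUSG00000006273, chromosome 8, 69088646 to 69113711). It lay at 11.31, 11.36 and 11.29 in naive and at 11.86, 11.91 and 11.86 in primed libraries, a rise of 0.56 (SE 0.06, adjusted p = 0.0346) against a spread of under 0.1 within each group. Lipa, the lysosomal acid lipase that breaks down cholesteryl esters, was at 11.79, 11.89 and 11.67 in naive and 12.54, 12.57 and 12.31 in primed libraries, a rise of 0.69 (SE 0.09, adjusted p = 0.0470). Fuca2, an alpha-fucosidase gene, was at 10.95, 11.08 and 10.93 against 11.51, 11.68 and 11.60, a rise of 0.61 (SE 0.07, adjusted p = 0.0346). Of the 24 tested genes on the lysosome list, 22 were higher in the mean and 1 rose. The groups separated upwards for 12 (50%), beside 8.92% of all genes. The list median of 0.29 stayed between 0.24 and 0.33 over all settings. Glb1, beta-galactosidase, differed by 0.50 (adjusted p = 0.0955), Ctsa, a protective carboxypeptidase, by 0.57 and Gla, alpha-galactosidase, by 0.50 (adjusted p = 0.1 each). Tfeb, the transcription factor that controls lysosomal genes, was 0.23 lower with overlapping groups.

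mTOR complex 1 is switched on at the lysosome surface, where Rag GTPases and the Ragulator complex recruit it. None of the 18 tested genes of mTOR and its control passed, and 4 (22.2%) separated the groups upwards, beside 8.92% of all genes. These were the Rag GTPase genes Rragc (difference 0.33), Rraga (0.31) and Rragd (0.60) and the Ragulator gene Lamtor1 (0.38), with adjusted p of 0.142 to 0.209. Mtor was at 11.39, 11.23 and 10.64 in naive and 11.18, 11.18 and 11.11 in primed libraries, a difference of 0.07 (SE 0.17) that turned to -0.15 without naive 3.

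Lysosomal hydrolases are also abundant in macrophages, and the macrophage level differed between the groups. All 17 tested macrophage genes were higher in the mean in primed libraries, by a median of 2.01. None passed, and 4 (23.5%) separated the groups upwards, beside 8.92% of all genes. Cd68, a lysosomal membrane protein gene of macrophages, was at 7.96, 9.56 and 7.44 in naive and 10.19, 10.74 and 9.73 in primed libraries (difference 1.90, SE 0.48, adjusted p = 0.147). Ptprc, which encodes the leukocyte antigen CD45, was at 7.13, 9.34 and 6.87 against 9.94, 10.26 and 9.18 (difference 2.01, adjusted p = 0.171). Trem2, a lipid-sensing receptor, differed by 2.02 (adjusted p = 0.151). The log2 of the summed level of the list was 13.58, 15.90 and 13.21 in naive and 16.46, 16.94 and 15.71 in primed libraries. In a bulk library, more cells of a type and more RNA of a gene in each cell cannot be told apart.

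The genes past the threshold were also set against naive 2 alone, whose macrophage level lay within the primed range. Their direction was fixed beforehand, since every primed library lay beyond every naive library for these genes, and only the size is given. The primed mean exceeded naive 2 by 1.66 for Npy, 1.56 for Pla1a, 1.06 for Car9, 1.06 for Slc16a3, 0.68 for Bnip3, 0.59 for Lipa and 0.51 for Atp6v1b2, and lay 3.89 below it for Esm1. Against naive 2 alone, 18 of 19 HIF1A targets were higher with a median of 0.48, 19 of 22 glycolysis genes with a median of 0.64 and 21 of 24 lysosomal genes with a median of 0.28. The macrophage list itself then had a median of 0.51. These are values against a single library and have no test. With the macrophage mean as a covariate in limma, no gene passed, and 2034 had an unadjusted p below 0.05. The differences in that fit were 1.04 (SE 0.19) for Car9, 0.72 (SE 0.13) for Bnip3, 0.52 (SE 0.12) for Lipa and -3.61 (SE 0.52) for Esm1.

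The other genes that rose are described one by one. Npy encodes neuropeptide Y, a transmitter of sympathetic nerves (ENSMUSG00000029819, chromosome 6, 49822710 to 49829507). It was at 6.05, 6.36 and 5.89 in naive and at 8.21, 8.44 and 7.41 in primed libraries, a rise of 1.92 (SE 0.25, adjusted p = 0.0468) or 3.78-fold, with primed 3 nearest to the naive libraries. Aqp5, a water channel of secretory glands, was at 4.78, 4.70 and 4.56 against 5.88, 6.68 and 6.36, a rise of 1.63 (SE 0.20, adjusted p = 0.0366). Pla1a, a secreted phospholipase that acts on phosphatidylserine (ENSMUSG00000002847, chromosome 16, 38396117 to 38433145), was at 8.64, 8.40 and 8.0 in naive and 9.86, 10.06 and 9.95 in primed libraries. Its rise of 1.61 (SE 0.15, adjusted p = 0.0346) was also the 1 call kept when each group had its own weight. Eef1a2, the form of translation elongation factor 1A found in muscle and neurons, was at 4.39, 4.34 and 3.91 against 5.33, 5.73 and 5.84, a rise of 1.42 (SE 0.19, adjusted p = 0.0468). Aqp5 and Eef1a2 are weakly expressed here, where the rlog understates differences. Lmcd1, a LIM domain co-regulator, was at 10.32, 10.33 and 10.55 against 11.18, 11.20 and 11.34, a rise of 0.84 (SE 0.08, adjusted p = 0.0346). Armh4, a membrane protein gene, rose by 0.84 (SE 0.11, adjusted p = 0.0443) and Tmem45a, a transmembrane protein gene, by 0.77 (adjusted p = 0.0346). Next in order of p-value, without passing, came Egln1, Pdk1, Ccdc125 with a difference of 1.02 (adjusted p = 0.0523), the MHC class II gene H2-Ab1 with 1.08 (adjusted p = 0.0632) and Hmox1, heme oxygenase, with 1.32 (adjusted p = 0.0667).

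Esm1, the gene that fell, encodes endocan, a dermatan sulfate proteoglycan that endothelial cells are known to secrete (ENSMUSG00000042379, at 113209659 to 113218098 of chromosome 13). It stood at 9.40, 10.27 and 8.93 in naive and at 6.24, 6.12 and 6.77 in primed libraries. The means were 9.53 ± 0.68 and 6.37 ± 0.35 (SD, n = 3), a fall of 3.16 on the log2 scale (SE 0.36, adjusted p = 0.0346) or 8.92-fold. The groups were far apart, with naive 2 the highest and primed 2 the lowest library. The endothelial list, given as the cells that Esm1 usually marks, had 6 tested genes, of which 2 were higher and 4 lower in the mean. The list members Cdh5, Tie1, Emcn and Cldn5 were below the filter, with values of at most 2.64. Each was highest in naive 2 (2.12, 2.64, 1.98 and 2.28), where Esm1 was highest too. The mean of the 6 tested genes did not follow Esm1 in this way. It was 5.22, 5.99 and 6.35 in naive 1, 2 and 3 and 5.55, 6.02 and 5.84 in primed 1, 2 and 3. Its highest value was in naive 3, the naive library with the least Esm1. The part of endothelial RNA in Esm1 was not tested. Vwf, the clotting factor carrier of endothelial cells, was 1.07 higher and Egfl7, a vascular matrix gene, 0.60 lower in primed libraries, both with groups that did not overlap and adjusted p of 0.126 and 0.177. Each was 16.7% of the tested list, beside 8.92% of all genes that separated upwards and 8.18% downwards.

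Other proteoglycan and hyaluronan genes were mixed. Of 19 tested, 12 were lower in the mean, 3 (15.8%) separated downwards and 2 upwards, with a median of -0.35. Besides Esm1, the genes that separated downwards were Prelp, a small leucine-rich proteoglycan (-0.53, adjusted p = 0.151), and Has1, a hyaluronan synthase (-0.85, adjusted p = 0.152). Cemip, which takes part in hyaluronan breakdown, was at 11.90, 11.80 and 12.14 in naive and 12.62, 13.63 and 13.04 in primed libraries, a difference of 1.15 (adjusted p = 0.124).

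No other gene fell past the threshold. Next in order of p-value, all with groups that did not overlap and adjusted p of 0.0632 to 0.0869, came genes that included Sox11, Bcr, Ltbp3, Thbs3, Ubqln2, Gatad2b, Fgf2, P3h2, Hectd4, Prrc2b, Kmt2a, Adgrl1 and Bmpr2. Sox11, a transcription factor of developing mesenchyme and neurons, was at 5.83, 6.02 and 5.51 in naive and 4.65, 3.92 and 4.31 in primed libraries, a difference of -1.49. Fgf2, a fibroblast growth factor, was at 11.06, 10.23 and 10.57 against 9.17, 9.07 and 9.17, a difference of -1.49, with the 3 primed libraries close together. P3h2, a collagen prolyl 3-hydroxylase, differed by -1.39 and Kmt2a, a histone methyltransferase, by -0.72. Ltbp3, which holds latent TGF-beta in the matrix, differed by -0.63 and Bmpr2, the type II BMP receptor, by -0.46.

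Several of these genes have a long exon length, and exon length moved with the difference over all genes. Exon length here is the combined length of the exons of all annotated transcripts of a gene, with overlaps counted once. The median exon length of the 15 lower genes with the smallest p-values was 8.59 kb, with 10 of 15 above 8 kb. The 20 higher genes had a median of 2.58 kb with 1 above 8 kb, and all tested genes had a median of 4.12 kb. Among the 1353 genes with an exon length of 10 kb or more, 17.3% separated downwards and 4.95% upwards, with a median difference of -0.10. Among the 2800 genes below 2 kb, 4.71% separated downwards and 11.2% upwards, with a median of 0.05. For the genes of 10 kb or more, deviations were taken from each gene's mean over the naive libraries, which sets the naive values near 0. Their median was -0.03, 0.05 and -0.02 in naive and -0.07, -0.14 and -0.08 in primed libraries. When the trend with exon length was removed from each library, a step chosen after seeing the data, 17 genes passed, and 15 of them were among the 16. Fam162a was lost in that fit (adjusted p = 0.0513) and Pdk1 gained (adjusted p = 0.0317). The part of exon length in single differences was not tested further.

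The lists of TGF-beta, Wnt and growth factor signalling had negative medians, with no member past the threshold. Of 32 tested TGF-beta, activin and BMP genes, 25 were lower in the mean, 5 (15.6%) separated downwards and 2 (6.2%) upwards, beside 8.18% and 8.92% of all genes, with a median of -0.20 that became 0.01 with the macrophage covariate. The noggin gene Nog, a BMP antagonist, was at 5.02, 5.27 and 4.47 in naive and 3.97, 3.18 and 3.58 in primed libraries (-1.34, adjusted p = 0.1). Ltbp4, a relative of Ltbp3, differed by -1.42 (adjusted p = 0.105), and Id2, a BMP target, was 0.41 higher. Of 28 Wnt genes, 18 were lower, 4 (14.3%, beside 8.18% of all genes) separated downwards and 1 upwards, with a median of -0.29. Those downwards were the receptor Fzd7 (-0.47), the ligands Wnt5a (-0.60) and Wnt11 (-0.74) and the antagonist Frzb (-0.69), and the ligand Wnt2b was 0.96 higher, all with adjusted p of 0.1 to 0.229. Of 28 genes of the FGF, PDGF, EGF and IGF systems, 21 were lower. Only Fgf2 separated the groups, downwards (3.6% of the list, beside 8.18% of all genes). Among 8 Sox genes, Sox11 and Sox8 (-1.02) separated downwards (25% of the list, beside 8.18% of all genes). The 15 VEGF and angiopoietin genes had 3 (20%, beside 8.92% of all genes) that separated, all upwards. These were Vegfa, Angptl2 (0.81, adjusted p = 0.111) and Angpt4 (1.10, adjusted p = 0.156). Of 21 limb and position transcription factors, 1 (4.8%) separated upwards and 3 (14.3%) downwards, beside 8.92% and 8.18% of all genes. Hoxd13, a gene of the most distal limb, was 1.21 higher and Prrx1 (-0.41), Hoxa10 (-0.38) and Pitx1 (-0.68) were lower without overlap. Hoxd13 was at 8.71 in both naive 2 and primed 2 to the decimals given.

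**Figure D4:**
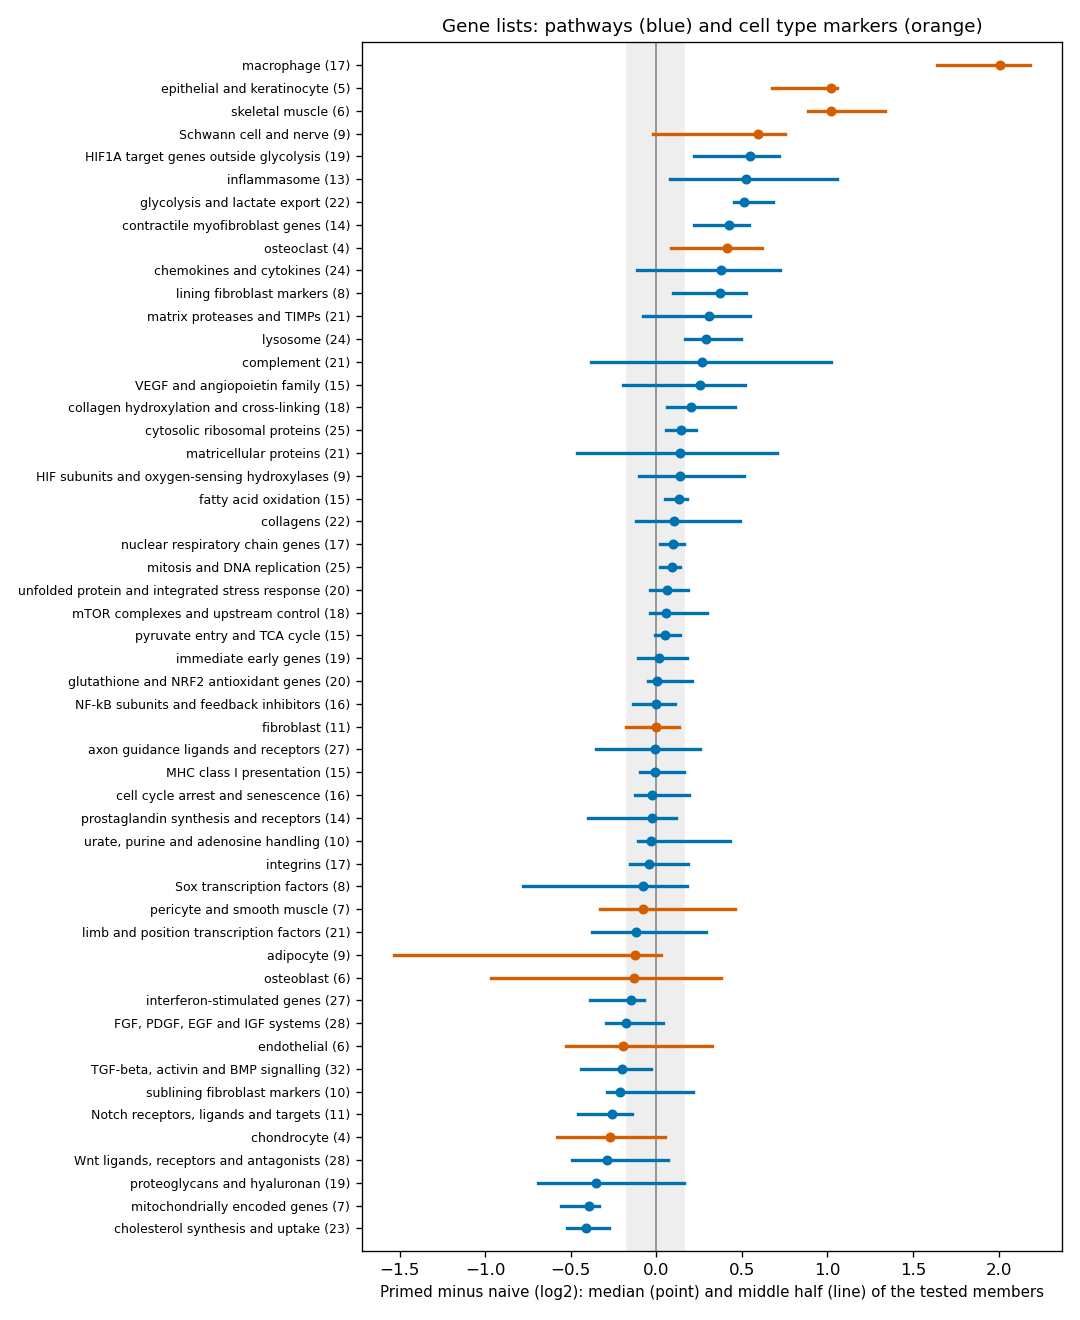
Median (point) and interquartile range (line) of the difference between primed and naive means (horizontal axis, log2) over the tested members of each gene list with at least 4 tested genes, whose number stands in brackets. Blue lists are pathways and orange lists cell type markers, and the grey band is the interquartile range of all 15632 tested genes (-0.172 to 0.165). The macrophage list lies farthest to the right at 2.01, and the interquartile ranges of HIF1A targets (0.219 to 0.72) and glycolysis (0.455 to 0.683) lie above the band. So do those of lysosomal (0.168 to 0.495), contractile (0.221 to 0.544), skeletal muscle (0.886 to 1.335) and epithelial genes (0.677 to 1.056).

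No gene on the lists of inflammation passed the threshold. Of 21 complement genes, 15 were higher, 2 (9.5%) separated upwards and 1 (4.8%) downwards, about the shares over all genes (8.92% and 8.18%), with a median of 0.27 that turned to -0.23 with the macrophage covariate. The C1q genes C1qa, C1qb and C1qc, which are macrophage markers, differed by 2.29, 2.23 and 2.22. C3, the central component, was at 11.89, 13.31 and 11.21 in naive and 11.98, 11.08 and 10.90 in primed libraries, a difference of -0.82 (SE 0.48, adjusted p = 0.413) in which naive 2 stood out as highest. C3ar1, the receptor of the C3 fragment C3a, was at 6.72, 9.06 and 6.36 against 9.30, 9.54 and 8.49, and C5ar1, the receptor of C5a, at 3.91, 6.17 and 4.04 against 5.63, 6.46 and 5.20. Their differences of 1.73 and 1.06 had adjusted p of 0.232 and 0.408 and became -0.23 and -0.82 with the macrophage covariate. Cd59a, which shields cells from the membrane attack complex, was at 8.56, 8.74 and 8.59 against 9.08, 8.93 and 9.07 (0.40, adjusted p = 0.141).

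Urate crystals are known to trigger the NLRP3 inflammasome, whose list had 13 tested genes. Of these, 10 were higher and 1 (7.7%) separated the groups upwards, near the 8.92% of all genes. Nlrp3 was at 3.89, 5.48 and 3.97 in naive and 5.35, 6.57 and 5.14 in primed libraries, a difference of 1.24 (adjusted p = 0.292) that became -0.28 with the macrophage covariate. Il1b, its best known product, was below the filter. The gene that separated was Gsdmd, the pore-forming gasdermin (0.52, adjusted p = 0.196). Among 24 chemokines and cytokines, 16 were higher and 4 (16.7%) separated upwards, beside 8.92% of all genes. Ccl8, a monocyte attractant, was at 10.06, 10.25 and 8.76 against 10.46, 12.96 and 11.72 (2.02, adjusted p = 0.175), Cxcl16 differed by 1.12 and Ccl2, the main monocyte chemokine, by 0.68. Cx3cl1, fractalkine, went the other way at 9.46, 9.71 and 9.29 against 8.94, 8.57 and 8.81 (-0.71, adjusted p = 0.1). Il6 overlapped, with 7.18, 6.91 and 5.92 in naive and 5.67, 6.67 and 7.34 in primed libraries. Of 10 genes that handle urate and purines, 2 (20%) separated upwards, beside 8.92% of all genes. These were Xdh, the oxidase that makes urate (0.43, adjusted p = 0.142), and Ada, adenosine deaminase (0.79, adjusted p = 0.161). Among prostaglandin genes, Hpgd, which inactivates prostaglandins, was at 7.27, 8.10 and 7.68 against 8.52, 9.69 and 9.72 (1.63, adjusted p = 0.1), the prostacyclin receptor Ptgir was 0.96 lower and the receptor Ptger2 was 0.76 higher.

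The 4 lists of collagens, collagen cross-linking, matricellular proteins and matrix proteases had positive medians, with no gene past the threshold. Of 22 collagens, 12 were higher and only Col16a1 (4.5%, beside 8.92% of all genes) separated the groups upwards. Col16a1 was at 12.36 to 12.77 in naive libraries against 13.33 and 13.22 in primed 2 and 3, with primed 1 between them (0.58, adjusted p = 0.111). The collagen median of 0.10 turned to -0.06 when naive 1 was left out and to -0.01 after quantile normalization. Col1a1 overlapped, with 12.86, 14.18 and 13.89 in naive and 13.05, 13.88 and 13.56 in primed libraries. Enzymes that hydroxylate and cross-link collagen were higher in 15 of 18 cases, by a median of 0.20 that stayed between 0.11 and 0.34 over all settings. Of these 18, 3 (16.7%) separated upwards and 1 (5.6%) downwards, beside 8.92% and 8.18% of all genes. Those upwards were Plod1, a lysyl hydroxylase (0.85, adjusted p = 0.1), and the prolyl 4-hydroxylase subunits P4ha2 (1.07, adjusted p = 0.105) and P4ha1. P4ha3, another such subunit, was 0.53 lower. P4ha1 and P4ha2 are also on the list of HIF1A targets. Among 21 matricellular genes, 4 (19%) separated upwards and 2 (9.5%) downwards, beside 8.92% and 8.18% of all genes. They included Postn (periostin, 1.07), Thbs4 (1.29) and Ccn3 (0.80) upwards and Thbs3 (-0.60) downwards. The list median of 0.14 turned to -0.05 when naive 1 was left out, to -0.13 for primed 2 and to -0.03 for primed 3. Of 21 matrix proteases and TIMPs, 15 were higher, by a median of 0.31 that stayed between 0.20 and 0.39 over all settings. Of these 21, 2 separated upwards (9.5%) and 1 downwards (4.8%), near the shares over all genes. Mmp3, stromelysin, was at 17.32, 19.48 and 16.39 against 17.44, 16.33 and 16.58, so that its mean difference of -0.95 rested on naive 2.

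Of 8 tested markers of lining fibroblasts, 1 (12.5%) separated the groups upwards, near the 8.92% of all genes. Of 10 tested markers of sublining fibroblasts, none separated the groups. Pdpn, podoplanin of the lining and of activated fibroblasts, was at 12.08, 11.87 and 11.94 in naive and 12.34, 12.51 and 12.44 in primed libraries (0.47, SE 0.10, adjusted p = 0.111). Prg4, the lubricin gene of the lining, ranged from 8.34 to 12.01 in naive and from 10.22 to 11.18 in primed libraries, and its difference of 0.28 turned to -0.78 without naive 3. Thy1, a marker of the sublining, differed by 0.19 (SE 0.27) and Pdgfra by -0.35 (SE 0.27), both with overlapping groups. Of 14 contractile genes, 13 were higher, with Lmcd1 the 1 that rose and separated (7.1%, near the 8.92% of all genes). The median of 0.43 for these contractile genes turned to -0.09 without naive 2.

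Some lists followed single naive libraries rather than the groups. Cholesterol synthesis and uptake genes were lower in 22 of 23 cases with a median of -0.41. Srebf2 (-0.61), Dhcr7 (-0.48) and Tm7sf2 (-0.64) separated the groups (13% of the list, beside 8.18% of all genes), with adjusted p of 0.167 to 0.254. Against naive 2 alone the median of that list was 0.07, and with the macrophage covariate it was 0.24. Interferon-stimulated genes were lower in 22 of 27 cases with a median of -0.15. All 27 were higher than in naive 2, by a median of 0.64, and the median was -0.60 against naive 1 and naive 3. It was 0.02 when naive 1 was left out, 0.13 for naive 3 and 0.01 for primed 3. Mitosis and replication genes had a median of 0.09, made up of 1.12 against naive 2, where all 25 were higher, and -0.39 against naive 1 and naive 3, where none was. Among 20 antioxidant genes, 11 were higher and 5 (25%) separated upwards, beside 8.92% of all genes. These included Hmox1, Prdx1, a peroxiredoxin (0.41), and Gpx1, a glutathione peroxidase (0.37). Among 17 integrins, Itga4 (-1.14) and Itga8 (-1.61) were lower without overlap (11.8%, near the 8.18% of all genes). Of 27 axon guidance genes, 3 (11.1%) separated upwards and 4 (14.8%) downwards, not far from the shares over all genes. Of 25 ribosomal protein genes, 21 were higher and 5 (20%) separated upwards, beside 8.92% of all genes. The median of this list was 0.15 and stayed between 0.08 and 0.21 over all settings.

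Markers of other cell types differed as well. The T cell genes Cd3e, Cd3g and Cd8a, the natural killer cell gene Ncr1, the neutrophil gene S100a9 and the mast cell gene Cpa3 were at 0 in all 9 libraries. Of 15 skeletal muscle genes, only 6 passed the filter. All 6 were higher in the mean in primed libraries, by a median of 1.02. Of the 6, 5 (83.3%) did so without overlap, beside 8.92% of all genes. Non-primed minus naive, against the same naive libraries, had a median of 1.13 over these 6 genes. Myh1, a fast myosin, was at 4.35, 5.27 and 4.49 in naive and 5.39, 6.05 and 7.20 in primed libraries (1.51, adjusted p = 0.190). The muscle stem cell gene Myf5 was at 0 in all libraries and Pax7 at about -2.1. Of 5 tested epithelial genes, 4 (80%) separated upwards, beside the same 8.92% of all genes. These were Perp, a desmosomal protein gene (1.32, adjusted p = 0.0749), Cdh17, a cadherin (1.02, adjusted p = 0.0874), Krt7 (1.06) and Krt19 (0.68). The keratin gene Krt14 was at 0 in all libraries, and Epcam, Cdh1, Krt5, Krt8 and Krt18 were below the filter. The epithelial marker mean was 5.40, 4.93 and 5.40 in naive and 5.76, 6.02 and 6.10 in primed libraries. Adipocyte genes varied within the groups, as in Adipoq at 8.64, 8.46 and 5.43 in naive and 6.56, 4.30 and 5.53 in primed libraries. Only Scd1, a fatty acid desaturase, separated the groups (-0.82, adjusted p = 0.1), which is 11.1% of the adipocyte list beside 8.18% of all genes. Their part in the differences of other genes was not tested.

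Primed and non-primed paws share the injection on day 9, and primed paws had the earlier one on day 0 as well. Between primed and non-primed libraries no gene passed in limma, while 198 genes (1.27%) had an unadjusted p below 0.05 and 1807 (11.6%) had groups that did not overlap. Paw side coincides with priming, so the effects of side and of the earlier injection cannot be told apart. Of the 16 genes, the largest difference between primed and non-primed libraries was that of Pla1a, which stood at 9.54, 9.55 and 9.59 in non-primed libraries, 0.40 lower than in primed ones (SE 0.15, adjusted p = 1). The other 15 differed by 0.31 or less in size, with Npy at 0.31 (SE 0.25), Esm1 at 0.23 (SE 0.36), Car9 at 0.18 (SE 0.17) and Bnip3 at -0.06 (SE 0.09). Side by side, and against the same naive libraries, non-primed minus naive was 1.22 for Car9, 0.76 for Bnip3, 1.03 for Slc16a3, 1.22 for Pla1a and -3.38 for Esm1. A difference that missed the threshold does not show that paws with 1 and with 2 injections were alike.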

How the data were processed

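RNA was measured by sequencing in 9 libraries, 3 per group. A spin column kit and a strand-preserving mRNA kit (1000 ng of RNA) were used, per the labels' protocols. The submitters' processing notes name cutadapt 2.5, STAR 2.5.4a, Subread 1.6.1, featureCounts, DESeq2 and the GRCm38 genome. The authors deposited rlog values on a log2 scale, and their settings, the annotation release and the counting's strand option were not given in the sources used here. No counts were used, so depth is unknown and precision is that of 3 libraries per group.

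Groups came from sample titles and columns were matched by name. Of 47729 genes, 19972 were at 0 everywhere, and of the 27757 that varied, 15632 had a mean of at least 3 over the 6 libraries compared and 12125 did not. Symbols matched 47224 identifiers, and gene coordinates are those of GENCODE M21. With limma 3.58.1 in R 4.3.3, a model with 1 mean per group took all 9 libraries (6 residual degrees of freedom), with a variance trend, two-sided tests and Benjamini-Hochberg adjustment over the genes tested. The fit was tested on simulated data. An exact test of 3 against 3 cannot go below 0.1, so groups that do not overlap were counted without a p.

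The comparison, its gene lists (55 lists, 900 different genes, 898 matched, 809 tested) and the named genes were chosen with earlier results of these data known. Named are genes past the threshold, the smallest p-values up to 20 higher and 15 lower whose groups do not overlap, up to 4 members per list by p-value with its highest and lowest difference, and 19 fixed genes. Predicted genes are left out, and some genes that meet the rule are not reported here. Lists were described by counts and medians, without a test. Promoter windows are from RefSeq on GRCm38.p6. Alternatives changed the filter, scaling, variance model, weights, block, macrophage covariate, exon length trend and each library in turn.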

Additional observations from a re-analysis of the deposited data

How the results depend on the processing

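The main limits are the small groups, the unknown depth, the wide spread of the naive cultures and a threshold that the leading genes pass narrowly. Against 16 genes past the threshold, limma gave 0 without a filter (3308 genes at an unadjusted p below 0.05), 0 without a variance trend (2574), 0 with the naive and primed libraries alone (1650) and 0 with the macrophage covariate (2034), 1 with weights per group and 729 with sample weights, which included all 16. Leaving out 1 library at a time gave 0 to 357 genes. Without 1 naive or primed library, 3171 to 5381 genes had groups that did not overlap, against 2674. That rise was fixed beforehand, since smaller groups separate more easily. Filters on all 9 libraries or at a mean of 5, median centring, quantile normalization, a robust variance prior and removal of the exon length trend, the last added after seeing the data, gave 13 to 18 genes, of which 13 to 16 were among the 16. Each of the 16 kept its direction in every setting in which it was tested. In fits on fewer libraries, or with other filters, variance models or weights, this was fixed beforehand. The naive and primed groups did not overlap for any of the 16. Of the 54 named genes, 8 turned sign in at least 1 setting, none of them past the threshold with all 9 libraries. The macrophage covariate, the replicate block and all fits on fewer libraries leave fewer residual degrees of freedom. The cause of the changed counts was not tested for any setting.

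Same-numbered naive and primed libraries deviated together with correlations of 0.093, -0.055 and 0.101, so the numbers were not taken to pair them. A replicate block in limma gave 51 genes. These held 13 of the 16 and lacked Eef1a2, Armh4 and Fam162a.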
